A study of Mus musculus with 2 samples.

Results

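The regions described here are the strong DNase I hypersensitive sites of mouse embryonic hindbrain that were present in replicate 2 and missing from replicate 1. They were selected on 2 measured values, a peak height of 70 or more in replicate 2 and the positions of the replicate 1 calls, so that each overlapped no peak and no hotspot of replicate 1 on chromosomes 1 to 19, X and Y. There were 4324 of them, among 61727 replicate 2 peaks of that height (7.01%), 194873 replicate 2 peaks of any height and 345049 peaks of both replicates. They are called replicate 2-only sites below. Their height and their absence from replicate 1 come from the rule that chose them and are given as descriptions.

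DNase-seq cuts accessible DNA in nuclei with the nuclease DNase I and sequences the cut ends. The series holds 2 biological replicates of a single group, hindbrain of the strain B6NCrl at embryonic day 11.5, with male and female embryos pooled in each. The authors called peaks, all 150 bp wide, and hotspots, which are broader stretches with raised cleavage, in each replicate separately. With 2 libraries of a single group no test across samples is possible, so shares are given with exact 95% Clopper-Pearson intervals that cover counting error only, and these are too narrow where sites lie side by side.

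Replicate 2 had taller peaks on the deposited scale than replicate 1, with a median height of 50 against 36, and its hotspots covered 73.7 Mb against 44.7 Mb. Neither the read depth nor the scaling of the height is stated in the files or labels. The part that this difference between the libraries plays in the results below was not tested. Applied the other way round, the same rule left 64 of 26287 strong replicate 1 peaks (0.243%). Without the height threshold, 44.9% of replicate 2 peaks and 19.7% of replicate 1 peaks overlapped no call of the other library. Every one of 32 listed hindbrain domain factor genes, such as the dorsal factor gene Lmx1b, was the nearest gene of at least 1 strong replicate 2 peak. The same held for all 20 listed forebrain genes and all 16 of limb and lateral mesoderm, so it was not particular to hindbrain genes.

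In the embryo the hindbrain is the neural tube region from which medulla, pons and cerebellum develop. Its segments, the rhombomeres, are given their identity by Hox genes, which sit in 4 clusters on different chromosomes and encode homeodomain transcription factors that often bind DNA together with PBX proteins. Genes for developmental transcription factors of many tissues lie in long stretches of CpG-rich DNA. Where such genes are silent, these stretches commonly carry Polycomb proteins, and where they are active, their promoters and enhancers are open to nucleases.

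Many of the tallest sites lay in CpG-rich DNA at Hox and other developmental genes, and 4 from different loci among the 10 tallest are printed first, with CpG dinucleotides in capitals (GRCm38, the mm10 assembly, plus strand, bases from RefSeq). Sites that held over 30 bp of an untranslated region were not printed. They are a site near Lhx2 (chr2:38348036-38348185), the promoter site of Hoxd13, 300 bp downstream of the start (chr2:74668536-74668685), an intergenic site near Cbx8 (chr11:119056516-119056665) and an intronic site of Lmx1b (chr2:33631756-33631905).
Lhx2 site: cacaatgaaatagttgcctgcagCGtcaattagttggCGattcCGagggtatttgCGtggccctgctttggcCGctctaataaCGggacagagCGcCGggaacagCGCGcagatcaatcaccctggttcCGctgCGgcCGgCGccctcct
Hoxd13 site: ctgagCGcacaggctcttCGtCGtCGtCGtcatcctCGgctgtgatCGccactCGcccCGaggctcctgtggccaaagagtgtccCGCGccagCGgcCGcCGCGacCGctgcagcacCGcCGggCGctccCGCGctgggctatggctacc
Cbx8 site: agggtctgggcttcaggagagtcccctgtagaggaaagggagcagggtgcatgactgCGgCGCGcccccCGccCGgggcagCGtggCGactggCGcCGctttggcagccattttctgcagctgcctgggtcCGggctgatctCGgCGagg
Lmx1b site: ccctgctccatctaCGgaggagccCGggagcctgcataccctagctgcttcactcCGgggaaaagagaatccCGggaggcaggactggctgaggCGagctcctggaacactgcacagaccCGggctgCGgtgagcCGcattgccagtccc

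The Hoxd13 sequence held 21 CpG dinucleotides in its 150 bp, the Lhx2 sequence 14, the Cbx8 sequence 12 and the Lmx1b sequence 8. A smaller number of sites held a match to the HOX-PBX motif TGATTNAT, searched on both strands, and most of these lay in narrow hotspots. Of those with a match, 2 of the tallest are printed with the match in capitals; they were chosen after their values were seen. They are an intronic site upstream of the annotated start nearest to it, that of Hoxd3 (chr2:74734516-74734665), and an intronic site of Prdm16 (chr4:154503336-154503485).
Hoxd3 site: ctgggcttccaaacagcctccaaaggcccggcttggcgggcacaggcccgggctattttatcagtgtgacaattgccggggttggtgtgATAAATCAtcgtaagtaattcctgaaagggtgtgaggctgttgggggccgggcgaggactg
Prdm16 site: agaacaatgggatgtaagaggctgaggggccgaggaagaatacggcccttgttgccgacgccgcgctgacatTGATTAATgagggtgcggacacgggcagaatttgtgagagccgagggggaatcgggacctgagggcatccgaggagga

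Of the 10 tallest replicate 2-only sites, 5 had a height of 116. These were the Lhx2 and Hoxd13 sites printed above, the promoter of the hindbrain Hox gene Hoxa2, a site 246 bp from the start of another annotated transcript and 10050 bp upstream of Hoxd1, and the Cbx8 site. Lhx2 encodes a LIM homeodomain factor, Hoxd13 a factor of the most posterior Hox group, and Cbx8 a chromobox protein of the Polycomb complex.

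The distance to replicate 1 differed widely among these tallest sites. The Cbx8 site lay 11 bp from a replicate 1 peak of height 50, whereas the Hoxd13 site lay 4371 bp from the nearest, of height 74. The Hoxd13 site also sat in a hotspot only 297 bp wide with a −log10 false discovery rate of 2.35, while 8 of the other 9 had the largest deposited value of 100. Also among the 10 tallest were a promoter site of Zic1, a zinc finger gene of the dorsal neural tube and cerebellum, at 115, the Lmx1b site at 114, a site near 5730596B20Rik in the HoxA cluster at 114, and an intronic site of Lhx2 at 113. Of the 10 tallest, 5 lay within a Hox cluster.

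As a set the replicate 2-only sites were shorter than the 54000 strong replicate 2 peaks that overlapped a replicate 1 peak, called shared strong peaks below. Their median height was 79 (quartiles 73 and 87), against 96 (82 and 115). The share of strong replicate 2 peaks that were replicate 2-only was 16.6% at heights 70 to 79, 10.4% at 80 to 89 and 5.80% at 90 to 99. It was 1.95% from 100 up to 110, 0.573% from 110 up to 120 and 0.00860% at 120 or more (1 of 11632 peaks). Counts ran evenly across the threshold, with 352 and 291 peaks by the same rule at heights 68 and 69, and 305 and 312 at 70 and 71. A further 3403 strong replicate 2 peaks lay in a replicate 1 hotspot without a replicate 1 peak and were left out by the rule.

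Absence from replicate 1 held for the 150 bp of a site and often not for the surrounding locus. The median distance to the nearest replicate 1 peak was 811 bp (quartiles 291 and 3031), and 1688 sites (39.0%) had a replicate 1 peak within 500 bp. At the other end, 252 sites (5.83%) were over 10 kb from any replicate 1 peak. Of the 2708 replicate 2 hotspots that held a site, 1344 (49.6%) also overlapped a replicate 1 hotspot, near the 52.8% of all replicate 2 hotspots. These 1344 held 2543 of the sites (58.8%). The other 1364 hotspots, with 1781 sites, stood apart from every replicate 1 hotspot.

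By position, the sites were spread over promoters, gene bodies and intergenic DNA. Each site was counted once, in the first class that applied: promoter, start of another transcript, coding exon, other exon, intron, then intergenic. The coding exon share thus leaves out coding sequence within 1 kb of a start, and an intron could be of any annotated gene. A promoter, defined as within 1 kb of a protein-coding start of the basic GENCODE annotation, held 1022 of them (23.6%, interval 22.4% to 24.9%), against 41.3% of shared strong peaks. Coding exons held 6.59% against 2.11%, starts of other transcripts 7.65% against 4.602%, other exons 4.35% against 2.33%, and introns 34.2% against 26.2%. Intergenic DNA held 23.6% of the sites and 23.5% of shared strong peaks.

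The lower promoter share depended on height. At heights 70 to 79 promoters held 18.9% of the sites and 16.6% of shared strong peaks, and at 80 to 89 they held 26.5% and 22.6%. At 90 and above the order turned, with 32.2% of the sites and 54.8% of shared strong peaks. Heights were not matched in that open bin, where 622 of 813 sites stood below 100, against 9323 of 33327 shared strong peaks. A turn at equal height was thus not shown. The distance bin that stood out was the one next to promoters. Between 1 and 5 kb from a start lay 1368 sites (31.6%), against 12.6% of shared strong peaks. Beyond 100 kb lay 335 sites (7.75%), against 9.34%.

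Hotspots around the sites were wide. The median width of the hotspot that held a site was 2190 bp (quartiles 814.5 and 4625), against 1256 bp for shared strong peaks. Hotspots over 2 kb held 2285 sites (52.8%, interval 51.3% to 54.3%), against 27.4% of shared strong peaks, although they made up 3.60% of replicate 2 hotspots. Hotspots over 8 kb held 417 sites (9.64%), against 0.661%. Replicate 1 had 922 hotspots over 2 kb (0.707% of its own) and replicate 2 had 5547. Wide hotspots were not particular to the sites. Strong replicate 2 peaks in a replicate 1 hotspot without a replicate 1 peak had 55.7% in hotspots over 2 kb. Their median hotspot width was 2152 bp. Among peaks by the same rule at heights 60 to 69, 24.7% lay in hotspots over 2 kb.

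**Figure D1:**
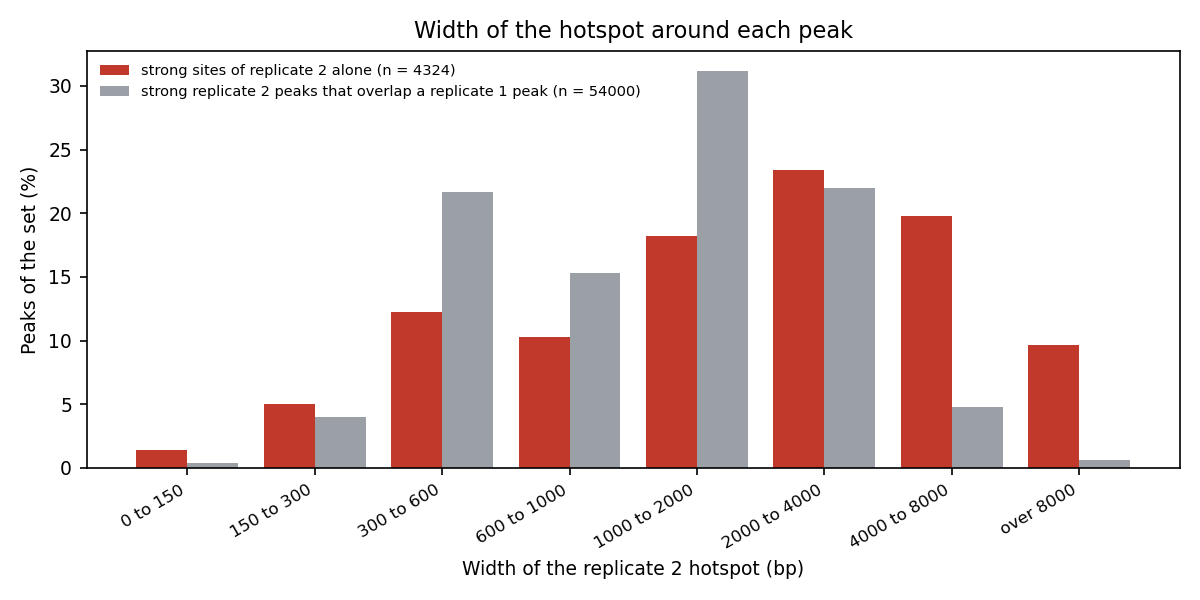
Width in bp of the replicate 2 hotspot around each peak, as a percent of the 4324 strong sites of replicate 2 alone (red, left bar) and of the 54000 strong replicate 2 peaks that overlap a replicate 1 peak (grey, right bar). Red bars pass grey ones in the 3 widest bins, with 9.64% against 0.661% over 8000 bp, and also in the 2 narrowest.

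Some hotspots held a whole series of sites. Most of the 2708 held 1 site (2095 hotspots), while 133 held 5 or more and together carried 1045 sites. The fullest was a hotspot of 15158 bp at Dmrta2, a doublesex-related gene of the developing forebrain, with 27 sites. Next were Lbx1 with 21 sites in 12366 bp and Gata2 with 20 sites in 13218 bp. Among hotspots apart from replicate 1 hotspots, one of 7422 bp at Gfi1, which encodes a zinc finger repressor of blood and hair cell development, held 15 sites. Its nearest replicate 1 hotspot was 31556 bp away. The widest of those apart, 11818 bp, lay downstream of the start of the neural crest gene Tfap2a. Adjacent sites of the same hotspot had starts a median of 440 bp apart, close to the 460 bp of shared strong peaks.

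Along the genome the sites lay close together. Sites within 50 kb of the next were joined into runs, and 3260 sites (75.4%) lay in 546 runs of 2 or more. The 85 runs of 10 or more held 1742 sites (40.3%). For 1729 sites (39.99%, interval 38.5% to 41.5%) the nearest strong peak of another hotspot was itself a replicate 2-only site, which was so for 4.67% of shared strong peaks. Among chromosomes, chromosome 19 had the highest share of strong peaks that were replicate 2-only, 9.82%, and X had 4.15%.

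The largest run covered the HoxA cluster (chr6:52150676-52322845), with 107 replicate 2-only sites among 128 strong replicate 2 peaks. Across its 172 kb replicate 2 had 159 peaks and replicate 1 had 30, and hotspots covered 74.0 kb against 5.82 kb. Evx1, a homeobox gene beside the cluster, was nearest to 15 of the sites, and Hoxa13, the most posterior gene of the cluster, to 22. The HoxB run held 63 sites of 91 strong peaks (chr11:96171016-96366805) and the HoxC run 61 of 77 (chr15:102910156-103086345). The other two of the 5 largest were a run at the forkhead genes Foxf1, Foxc2 and Foxl1 with 36 of 46 strong peaks (chr8:121071596-121129205), and a run at the orphan nuclear receptor gene Nr2f2 with 34 of 60 (chr7:70280356-70370825).

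**Figure D2:**
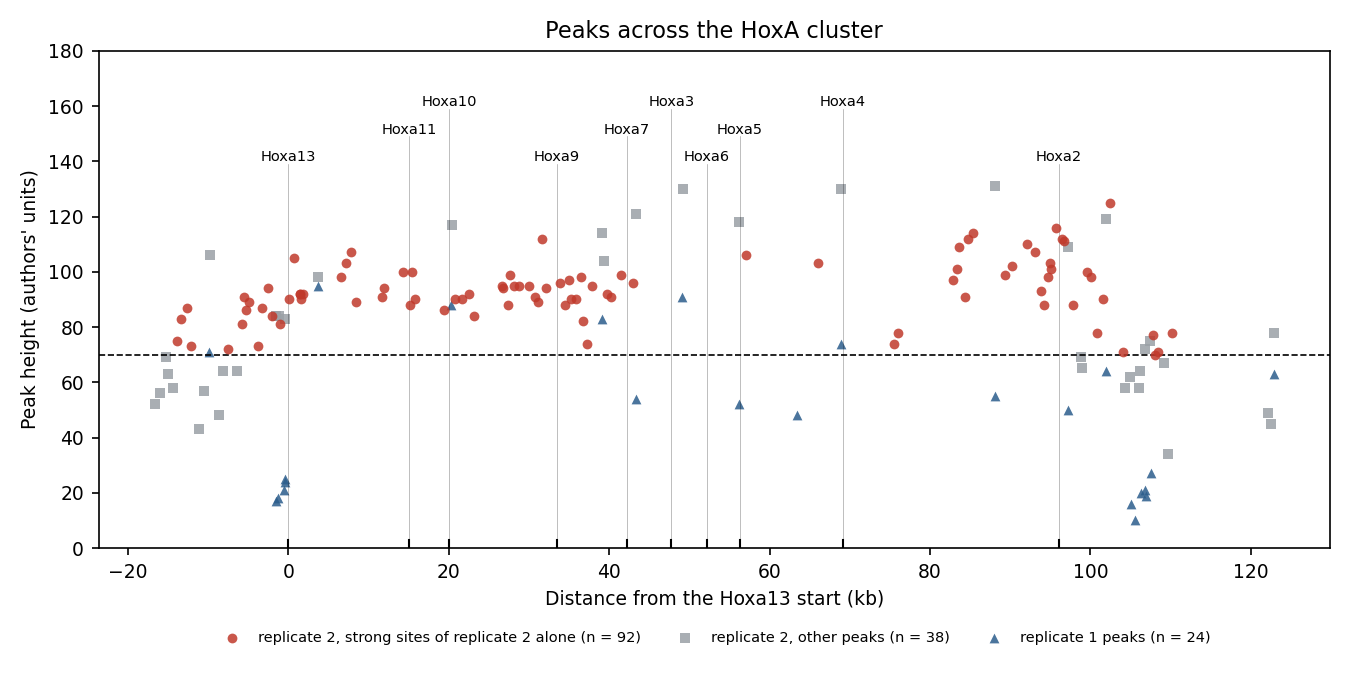
Peak height in the authors' units against distance in kb from the Hoxa13 start, positive toward Hoxa2, across the HoxA cluster, with starts of named Hoxa genes as ticks. The 92 strong sites of replicate 2 alone are red circles, the 38 other replicate 2 peaks are grey squares, the 24 replicate 1 peaks (blue triangles) reach 95, and the dashed line is the threshold of 70.

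Within the bounds of the Hox genes themselves, replicate 2-only sites were the larger part of strong replicate 2 peaks in all 4 clusters. They were 74 of 85 in HoxA (87.1%), 60 of 80 in HoxB (75%), 47 of 58 in HoxC (81.0%) and 25 of 39 in HoxD (64.1%). Replicate 2 had 89 peaks in HoxA, against 12 in replicate 1, then 135 against 24 in HoxB, 97 against 14 in HoxC and 57 against 20 in HoxD. The highest replicate 2 peaks were 131, 122, 115 and 123 in HoxA, HoxB, HoxC and HoxD, against 95, 100, 100 and 85 in replicate 1, which was thus not empty there. The widest hotspot of a cluster measured 6518 to 10083 bp in replicate 2, against 372 to 567 bp in replicate 1.

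Anterior and posterior Hox genes were both included. Hox paralog groups 1 to 4, which pattern the hindbrain, had 82 replicate 2-only sites among 113 strong peaks (72.6%), at 10 of 12 genes. Groups 5 to 8, of the neck and trunk, had 40 of 57 (70.2%) and groups 9 to 13, of the posterior trunk and limbs, 114 of 144 (79.2%). Across all genes within 100 kb, 3989 of 56150 strong replicate 2 peaks were replicate 2-only, a share of 7.10%. Hoxd3, with 20 sites, Hoxc4, with 14, and Hoxa2 and Hoxb3, with 12 each, led the anterior group. Hoxc6, with 9, and Hoxb5 and Hoxc8, with 7 each, led groups 5 to 8, and Hoxa13, with 22, Hoxa9 and Hoxb9, with 14 each, led the posterior groups. At Hoxa9 all 14 strong replicate 2 peaks were replicate 2-only, and no replicate 1 peak of any height was assigned to it.

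At least 1 site was nearest to each of 1501 protein-coding genes, of 21827 (6.88%). Most of these had few: 946 genes had 1 site, while 95 genes with 10 or more held 1549 sites (38.8% of those assigned to a gene). The 15 genes with the most sites all encode developmental transcription factors. Nr2f2 had 34 sites among 62 strong replicate 2 peaks, Tbx15, a T-box gene of mesenchyme, 31 of 34, and Six3, a homeobox gene of the forebrain and eye, 29 of 33. Replicate 1 had 45 peaks of any height nearest to Nr2f2, with the highest at 118, while Tbx15 had 3 replicate 1 peaks and Six3 had 8.

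The next genes were Tfap2a, Dmrta2 and the T-box gene Tbx3, with 27 sites each. Lbx1, a homeobox gene of dorsal hindbrain and spinal cord neurons and of migrating muscle precursors, and Ebf3, a helix-loop-helix gene of neurons, had 26 each. Uncx, a homeobox gene of somites, Gata2, of blood progenitors and some interneurons, and Tbx5, of the heart and forelimb, had 25 each. Hand2, of heart, limb and sympathetic neurons, Hlx, a homeobox gene of the gut and liver mesenchyme, and Foxf1, of lateral mesoderm, had 24 each. Replicate 1 peaks of any height numbered from 3 at Tbx15 to 45 at Nr2f2 over the 15 genes, and replicate 2 peaks from 34 at Gata2 to 113 at Nr2f2.

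**Figure D3:**
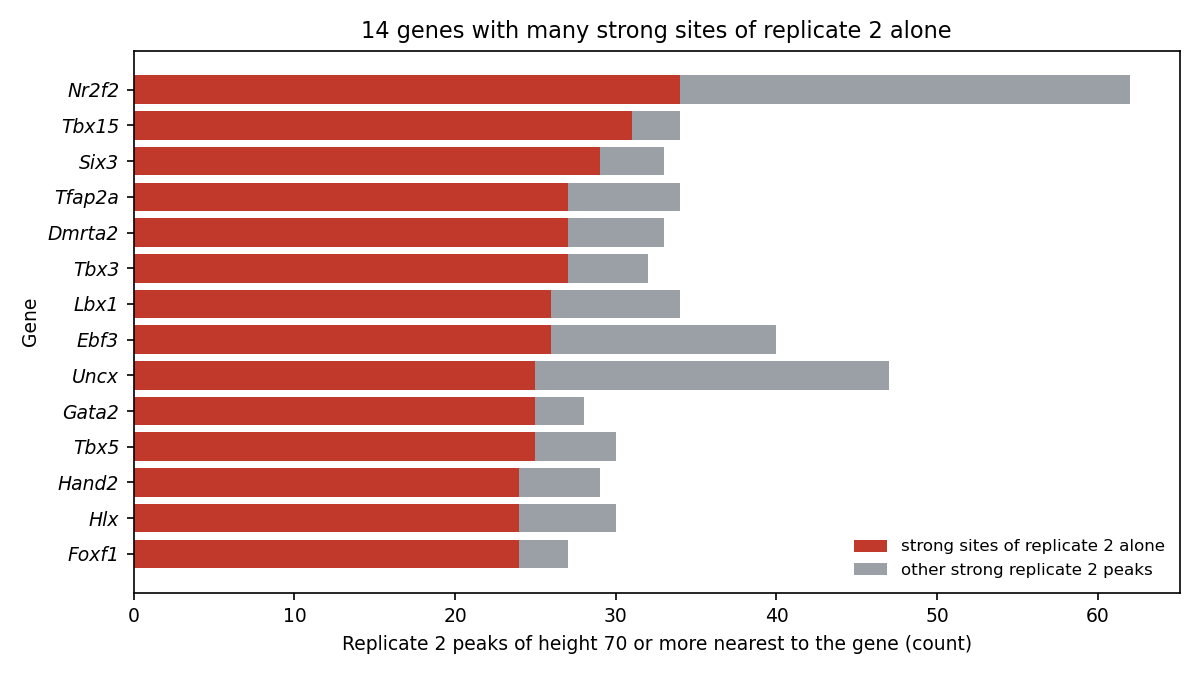
Number of replicate 2 peaks of height 70 or more nearest to each of 14 genes with 24 or more strong sites of replicate 2 alone, split into those sites (red) and other strong replicate 2 peaks (grey). Red makes up the larger part of every bar, from 25 of 47 at Uncx to 31 of 34 at Tbx15.

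The tissue in which the nearest genes are known to act was then compared through 25 gene lists. The lists share genes, so their counts are not independent, and they were chosen with earlier results of these data known. Heights were not matched between lists, although the replicate 2-only share fell with height. Peaks of 100 or more were 24 of 170 strong peaks in the heart list and 46 of 90 in the housekeeping list. Over all genes they were 24291 of 56150. In 23 of the 25 the share of strong peaks that were replicate 2-only was above the 7.10% over all genes. The interval reached down to 7.10% or below in the lists of germ cells, liver, erythroid cells, and endothelium and pericytes, which had 4 to 6 sites each. In those of housekeeping genes (3.33%) and of myeloid cells and microglia (0 of 27 strong peaks, which allows up to 12.8%) the share was below it. In bulk tissue, fewer cells with an open site and less cutting per cell cannot be told apart.

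**Figure D4:**
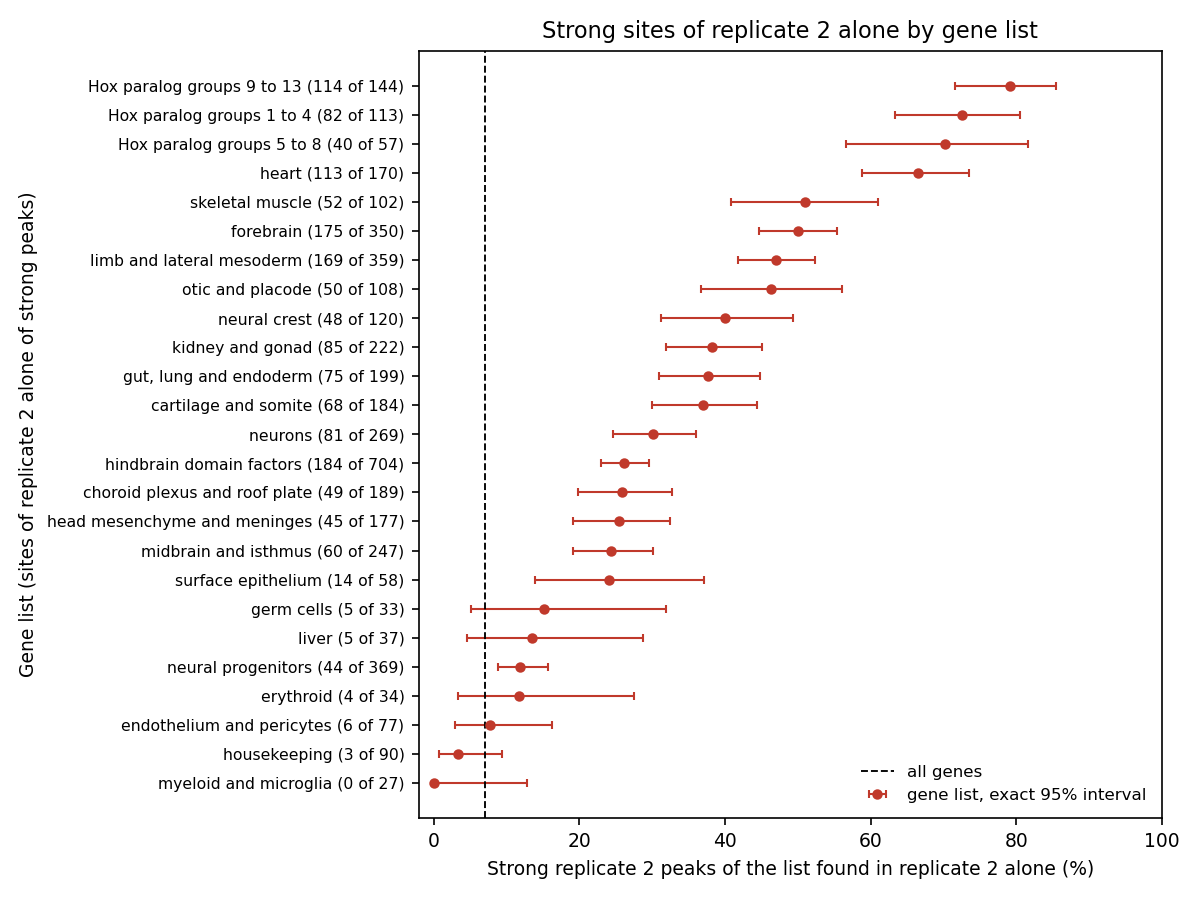
Percent of strong replicate 2 peaks nearest to the genes of each list that were strong sites of replicate 2 alone, with exact 95% intervals and counts beside each list name. The dashed line at 7.10% is the share over all genes, and the 3 Hox lists and the heart list lie farthest from it, at 66.5% to 79.2%. Heights were not matched between lists.

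Lists of tissues outside the brain had some of the highest shares. The heart list had 113 sites among 170 strong peaks (66.5%, interval 58.8% to 73.5%). Nearly all lay at Tbx5 (25), Hand2 (24), Gata4 (22), Nkx2-5 (20), Gata6 (14) and Hand1 (6), which are regulators of heart formation. Tbx20, another heart T-box gene, had 1. The contractile and hormone genes of the list, such as Myh6, Actc1 and Nppa, had no site, and these 3 had no strong replicate 2 peak at all. The atrial myosin light chain gene Myl7 was the exception, with 1 site. Without hotspots over 2 kb the heart list had 18 of 43 (41.9%), and with a clearance of 2 kb from replicate 1 it had 57 of 170 (33.5%).

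The skeletal muscle list had 52 sites of 102 strong peaks (51.0%), of which Lbx1, also on another list, had 26. The share was 4 of 37 (10.8%) without hotspots over 2 kb, 13.7% with a clearance of 2 kb from replicate 1 and 39.3% with genes assigned within 200 kb. The muscle transcription factor genes Myod1 (2 strong peaks), Myog (2), Msc (4) and Mef2c (7) had none, and the intermediate filament gene Des and the acetylcholine receptor gene Chrna1 had 1 each. In the liver list Prox1, a homeobox gene also active in the nervous system, had all 5 sites, and Afp and Apoa1 had none, with 1 strong peak each.

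Limb and lateral mesoderm genes had 169 sites of 359 strong peaks (47.1%), with at least 1 at each of its 16 genes, led by Tbx5, Hand2 and Foxf1. The otic and placode list had 50 of 108 (46.3%), with 11 at Tbx1 and 4 each at Dlx3 and Hmx2. In the kidney and gonad list, with 85 of 222 (38.3%), Pax2, Wt1 and Lhx1 had 16 each. The gut, lung and endoderm list, with 75 of 199 (37.7%), was led by Nkx2-1 with 21 and by Cdx2 and Pdx1 with 13 each. The cartilage and somite list had 68 of 184 (37.0%), of which Uncx had 25, Nkx3-2 had 21 and Pax9 had 15, while the collagen gene Col2a1 and the aggrecan gene Acan had none.

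Neural lists differed among themselves. Forebrain genes had 175 sites of 350 strong peaks (50%, interval 44.6% to 55.4%), at 19 of 20 genes, led by Six3 with 29, Nkx2-1 with 21 and Otp with 17. These encode homeodomain factors of the anterior forebrain and the hypothalamus. Hindbrain domain factors had 184 of 704 (26.1%, interval 22.9% to 29.5%), led by Lbx1 with 26, Lhx2 with 20 and Lmx1b with 15. Midbrain and isthmus genes had 60 of 247 (24.3%), with 16 at Pax2, 14 at En1 and 11 at Foxa2.

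Genes of dividing neural progenitors had a lower share, 44 of 369 (11.9%, interval 8.80% to 15.7%), led by Pax6 with 16 and Zic1 with 10. Sox2, with 45 strong peaks, had 1 site, and Hes1, Notch1 and Rfx4 had none. In the neuron list, with 81 of 269 (30.1%), Ebf3 had 26, Onecut1 had 20 and Isl1 had 11, all transcription factor genes. The cytoskeletal and synaptic genes Tubb3, Map2, Dcx, Snap25 and Syt1 had none, although each had at least 1 strong replicate 2 peak. The list did not split cleanly by kind of gene. The transmitter enzyme gene Gad2 had 7 of 8 strong peaks and Gad1 had 2 of 17, while the transcription factor genes Myt1 and St18 had 0 of 5 each.

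Other lists followed with smaller counts. Neural crest had 48 of 120 (40%), with 27 at Tfap2a and 15 at Tfap2b, and none at Sox10. Choroid plexus and roof plate had 49 of 189 (25.9%), led by Lmx1b, Msx2 with 9 and Lmx1a with 8. Head mesenchyme and meninges had 45 of 177 (25.4%), with 10 at Foxc1 and 8 at Foxc2, and surface epithelium had 14 of 58 (24.1%), of which Tfap2c had 9. The erythroid list had 4 of 34, at Tal1 (2), Epor (1) and Sptb (1), and the globin genes had no strong replicate 2 peak. The endothelial list had 6 of 77 (7.79%), close to the share over all genes, and the germ cell list 5 of 33, at Prdm1 (4) and Nanos2 (1). Actb had the 3 sites of the housekeeping list.

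The tallest site of most lists lay within 10 kb of its gene's start, the exceptions being those of neural crest at Tfap2a (24814 bp), germ cells at Nanos2 (28870 bp) and erythroid cells at Sptb (64393 bp). Examples were a site of height 113 in an intron of Ebf3 and one of 111 at the promoter of the mesenchyme gene Tbx18. A site of 110 lay 6498 bp downstream of the start of Foxa2, the floor plate factor gene. It was in an intron of an annotated gene that need not be Foxa2. At the promoter of Wt1, a zinc finger gene of kidney and gonad, a site stood at 109. The nearest replicate 1 peak was 111 bp away at Ebf3, 171 bp at Tbx18, 671 bp at Foxa2 and 3751 bp at Wt1. Promoters among the 10 tallest promoter sites included those of Hoxd13, Hoxa2, Zic1, Prdm6 and Tbx18, all between 111 and 116.

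The grouping of genes by words in their RefSeq descriptions was a choice made after values were seen. Heights were not matched between families, or between families and other genes, although the replicate 2-only share fell with height. Of strong replicate 2 peaks assigned to 381 genes of 10 transcription factor families, 1587 of 4160 were replicate 2-only (38.1%), against 2402 of 51990 at all other genes (4.62%). Within these families the share was 76.3% for GATA, 65.7% for doublesex-related, 56.2% for T-box, 44.7% for homeobox, 33.7% for Zic and 33.2% for nuclear receptor genes. It was 26.9% for forkhead, 24.5% for paired box and 16.1% for helix-loop-helix genes, while SRY-box genes, with 17 of 266 (6.39%), were near the share over all genes. By comparison it was 4.75% for potassium channel genes, 1.99% for ribosomal protein genes, 1.71% for numbered zinc finger protein genes and 0.613% for collagen genes, and NADH dehydrogenase genes had 0 of 77, which allows a share of up to 4.68%.

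Of all sites assigned to a gene, 39.8% lay at the 10 families, against 4.69% of shared strong peaks, while the families held 1.75% of protein-coding genes. Of the 95 genes with 10 or more sites, 67 were in them. Apart from transcription factors, Polg, the gene of the mitochondrial DNA polymerase, was nearest to 22 sites of 47 strong peaks. None of the 22 was a promoter site, and only protein-coding genes were considered as nearest. Slc32a1, the vesicular transporter of GABA and glycine, had 13. Polg and Slc32a1, and the genes in the next sentence, were singled out after their values were seen. The Polycomb gene Cbx8 had 14 sites, the retinoic acid hydroxylase genes Cyp26b1 and Cyp26a1 had 11 and 8, and the retinoic acid receptor gene Rara had 12.

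At heights below 90, more of the sites than of shared strong peaks lay in CpG-rich DNA. A CpG-rich kilobase (GC of at least 50% and a CpG ratio of observed to expected of at least 0.6 over 1 kb) surrounded 1162 sites (26.9%), against 34.8% of shared strong peaks. At heights 70 to 79 it surrounded 15.8% of the sites and 6.81% of shared strong peaks. At 80 to 89 the shares were 30.1% and 14.7%, and at 90 and above 52.6% and 49.8%. Outside promoters and over all heights the share was 17.9% of the sites and 9.56% of shared strong peaks. Strong replicate 2 peaks in a replicate 1 hotspot without a replicate 1 peak had higher shares than the sites. These were 22.4% at heights 70 to 79 and 40.2% at 80 to 89. Outside promoters they were 6.40% and 17.5%, against 9.76% and 19.8% of the sites. Repeats covered 50% or more of 31 sites (0.717%, against 1.27%), and the central 31 bases of 25 sites (0.578%, against 1.07%) had another copy in the genome.

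Sites in wide and in narrow hotspots differed in genes and sequence. The 2285 sites in hotspots over 2 kb had a median height of 82, a median distance of 2221 bp to the nearest start and 591 bp to a replicate 1 peak. The 2039 sites in hotspots of 2 kb or less had a median height of 76, and lay 10182 bp from a start and 1411 bp from a replicate 1 peak. The 10 transcription factor families took 50.8% of gene-assigned sites in wide hotspots, against 9.34% of shared strong peaks in wide hotspots, and 25.4% in narrow ones, against 2.76%. Promoters held 28.8% of sites in wide and 17.8% in narrow hotspots.

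The HOX-PBX motif TGATTNAT gave the largest positive difference from shared strong peaks among 35 motifs searched on both strands of the 150 bp. It was present in 163 sites (3.77%, interval 3.22% to 4.38%), against 564 shared strong peaks (1.04%), and in 2.21% of all replicate 2 peaks. Windows of the same length 1 kb to each side of the sites held it at 1.20% and 1.39%. The narrow hotspots carried the difference: 142 of 2039 sites there held a match (6.96%, interval 5.90% to 8.16%), against 1.17% of shared strong peaks in narrow hotspots. In wide hotspots 21 of 2285 sites did (0.919%, interval 0.570% to 1.40%), against 0.703%.

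**Figure D5:**
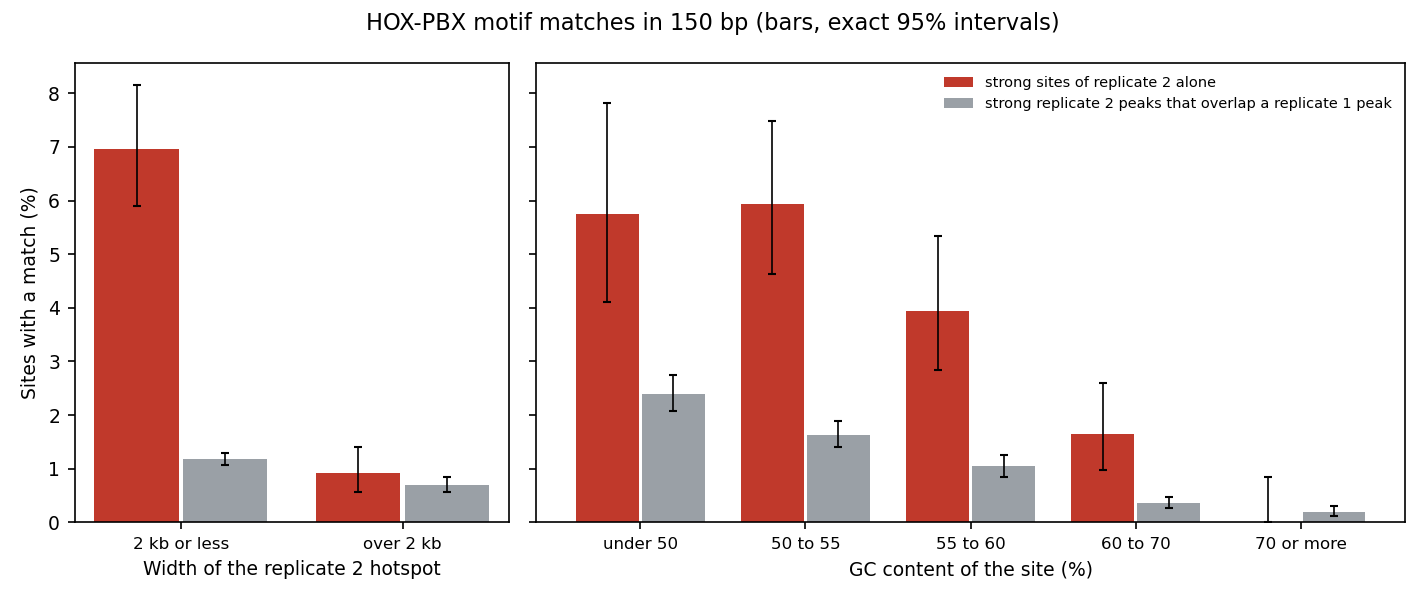
Percent of sites with a HOX-PBX motif match in their 150 bp, by width of the replicate 2 hotspot (left panel) and by GC content of the site (right panel), with exact 95% intervals. Strong sites of replicate 2 alone (red) stand at 6.96% against 1.17% of strong replicate 2 peaks that overlap a replicate 1 peak (grey) in hotspots of 2 kb or less, and above grey in every GC bin under 70%.

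The difference was present in each GC bin under 70% and in each bin of height. The motif was found in 5.76% of sites and 2.40% of shared strong peaks with GC under 50%, and in 1.65% and 0.362% of those with GC of 60% to 70%. By height it was in 3.60% against 1.68% at 70 to 79, 3.17% against 1.39% at 80 to 89 and 5.17% against 0.738% at 90 and above. The last bin does not match heights. In it 1 of 813 sites reached 120, against 11442 of 33327 shared strong peaks. At a GC of 70% or more 0 of 432 sites had a match, which allows up to 0.8503%, against 18 of 9317 shared strong peaks (0.193%). The 4 Hox clusters, here extended by 50 kb on both sides, held only 7 of the 163 sites with a match. Without these extended clusters the share was 3.83%.

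Sites with a match were distal and dispersed. Of the 163, 10 were promoters and 49 were over 100 kb from any protein-coding start. Their median distance to a replicate 1 peak was 3091 bp, and among sites over 2 kb from every replicate 1 peak and hotspot 104 of 1386 (7.504%) held a match. The tallest with a match was the Lhx2 site of height 116, and a site 2098 bp upstream of the Smug1 start followed at 110. The Prdm16 site reached 108 at 133456 bp from its gene's start, in a hotspot of 1702 bp. Prdm16 encodes a zinc finger protein. No gene had more than 3 such sites, and Hoxd3 had 3.

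Motifs of widely used promoter factors were scarcer in the sites, with most of the difference at heights of 90 and above. In that bin shared strong peaks were the taller set, so its values are not at matched height. The ETS motif CCGGAAGT was in 9 sites (0.208%), against 1.91% of shared strong peaks and 0.714% of all replicate 2 peaks. At heights 70 to 79 it was in 0.267% against 0.285%, and at 90 and above in 0.246% against 2.92%. The SP and KLF motif GGGGCGGGG, in 2.27% against 7.07% over all heights, was in 2.27% against 1.81% at heights 70 to 79 and in 2.83% against 10.1% at 90 and above. The CRE motif TGACGTCA was in 0.208% against 1.13%, and at heights 70 to 79 in 0.222% against 0.370%. At 90 and above the CRE motif was in 0.246% against 1.60%.

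Other motifs were scarcer at equal height as well. The RFX motif, bound by factors such as Rfx4 of neural progenitors, was in 3 sites (0.0694%, interval 0.0143% to 0.203%), against 0.969% of shared strong peaks and 0.704% of all replicate 2 peaks. At heights 70 to 79 it was in 0.0889% against 1.03%, and outside promoters in 0.0909% against 1.31%. The REST motif, bound by a repressor of neuronal genes, was in 1 site, against 177 shared strong peaks (0.328%) and 0.189% of all replicate 2 peaks. At heights 70 to 79 that was 0.0444% against 0.541%. The SOX motif ACAATGG was in 1.53% against 2.25%, and at heights 70 to 79 in 1.56% against 2.88%.

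The remaining motifs described here had no single direction. The helix-loop-helix motifs CATCTG and CAGCTG were in 11.7% and 13.6% of sites, against 10.7% and 13.04% of shared strong peaks. At heights 80 to 89 the order turned, with 9.44% and 11.8% of sites against 13.95% and 14.3%, and outside promoters it was 13.02% and 14.6% against 14.6% and 15.8%. The CTCF motif was in 1.25% against 1.39%, with intervals of 0.940% to 1.63% and 1.30% to 1.497%. The MEIS motif TGACAG was in 11.4% against 10.2%, and within narrow hotspots in 15.99% against 11.1%. In wide hotspots it was in 7.31% against 7.80%, at promoters in 6.46% against 7.47%, and at heights 80 to 89 in 9.20% (interval 7.66% to 10.9%) against 12.2% (11.6% to 12.9%). A match is a run of letters and does not show that the factor bound.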

How the data were processed

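DNase-seq of mouse hindbrain at embryonic day 11.5 was deposited as 150 bp peaks and as hotspots for each of 2 biological replicates, aligned to mm10 per the file headers and labels. The aligner, the callers, their filters and the read depth are not stated there. Peak height, the signal per peak, is a whole number as the authors deposited it, with no stated scaling. The authors deposited a −log10 false discovery rate for each hotspot, with 100 for the strongest. The display score deposited by the authors beside it was not used for any result.

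Only the numbered chromosomes and the sex chromosomes were analysed, and repeated entries at the same position were counted once. The mitochondrial genome and unplaced scaffolds were left out. Overlap meant at least 1 bp, and hotspots were matched in the same way. Position and nearest protein-coding start within 100 kb came from the basic GENCODE annotation, release M21. Sequence came from the RefSeq copy of GRCm38 (patch p6), read with pysam 0.24.0. Counts were made with Python 3.11.15, numpy 2.4.6, pandas 2.3.3 and scipy 1.17.1, and figures with matplotlib 3.10.9. The overlap, sequence-copy and motif steps were tested on simulated data. No p-value was computed, because the rule uses both libraries. Shares carry exact 95% intervals for counting error.

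Named were the 10 tallest sites, the 5 largest runs, the 15 genes with the most sites, the tallest site and up to 3 leading genes of each tissue list, and promoters among the 10 tallest promoter sites; other names were chosen after their values were seen. Some sites and genes that this rule names are not reported here. The sites, gene lists, families and motifs were chosen with earlier results of these data known. Of 429 list entries, 428 were annotated. Alternatives varied the height threshold, the clearance from replicate 1, the promoter window, the distance that joins sites, the gene limit, and the exclusion of repeated sequence, wide hotspots or Hox clusters.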

Additional observations from a re-analysis of the deposited data

How the results depend on the processing

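The number of sites followed the rule closely. It was 8770 at a height threshold of 60, 2074 at 80 and 191 at 100. It was 1386 with a clearance of 2 kb from every replicate 1 peak and hotspot, 2497 with 500 bp and 7727 when only replicate 1 peaks counted. It was 2039 without hotspots over 2 kb and 2708 with 1 site per hotspot.

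The promoter share was 19.6%, 28.7% and 34.0% at thresholds of 60, 80 and 100, 11.4% with the 2 kb clearance, 17.8% without hotspots over 2 kb and 21.6% at heights 70 to 89. It was 13.02% with a promoter window of 500 bp and 40.7% with 2500 bp. The share within 50 kb of another site was 77.6% at a threshold of 80, 72.3% at 100, 64.8% with the 2 kb clearance, 56.2% without hotspots over 2 kb, 55.6% with 1 site per hotspot and 73.9% without the Hox clusters; joining at 10 kb and 100 kb gave 68.2% and 79.9%.

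Of the 25 tissue lists, 23 stood above the share over all genes (7.10%). Against the share over all genes under each setting, 23 did so at thresholds of 60 (11.2%) and 80 (4.41%), 24 without hotspots over 2 kb, and 19 at a threshold of 100 or with the 2 kb clearance. With that clearance, the share was 0.271% at neural progenitor genes, 4.40% at hindbrain factors and 56.3% at Hox groups 9 to 13, against 2.17% over all genes. Removing the sites whose central bases have another copy in the genome left 4299.

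No paired analysis was possible because the study has 1 group, and neither replicate was left out because the rule uses both. Read depth is unknown, so absence from replicate 1 means only that no call overlapped.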

Other observations

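The mirror set, strong replicate 1 peaks that overlapped no replicate 2 peak or hotspot, held 64 sites. Only 1 of them was a promoter site, none lay in a CpG-rich kilobase, which allows a share of up to 5.60%, and median GC content was 56.7% in the replicate 2-only sites and 48.7% in the mirror set. The tallest were at 94 near Axin1, a scaffold gene of Wnt signalling, and at 92 near Exoc5, a gene of the exocyst complex.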
